A study of Mus musculus with 8 samples.

Results

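This report sets the arrays of 3XHMT cells, mouse pre-iPSCs in which Ehmt1, Ehmt2 and Setdb1 were targeted by siRNA at once, against the control arrays, on which the same cells had received siRNA against luciferase. The comparison rests on 5 of the 8 arrays of the study, 2 of 3XHMT and 3 of control, and covers all 18193 genes that had a probe set with 1 gene symbol. Where a gene had several such probe sets, the one with the highest mean over the 8 arrays stood for it. The other 3 arrays come from cells with siRNA against Cbx3 and have no result of their own here. They entered the main model to estimate the spread between arrays, and their further part in a second model is given below. Pre-iPSCs are cells that began reprogramming to pluripotency and stalled before reaching it. All groups were kept in embryonic stem cell medium and exposed to siRNA for 3 days, and whole-cell RNA was then hybridised. The labels name no strain, donor or clone. They describe replicates as biological but do not say which step was repeated, so the p-values measure the spread between these samples, which may be technical. In RNA from whole cultures, more cells with a transcript and more transcript per cell cannot be told apart.

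Methylation of histone H3 at lysine 9 marks silent chromatin. EHMT1 (GLP) and EHMT2 (G9a) work as a pair that places the mono- and dimethyl forms of the mark, mainly in euchromatin, and SETDB1, brought to DNA by TRIM28 and KRAB zinc finger proteins, places the trimethyl form and silences endogenous retroviruses and some genes of early development and the germline. In reprogramming, this mark is known as a barrier that keeps genes of the pluripotency network shut in cells that stall.

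The cells were checked against the marker genes of their label. Of 7 genes active in reprogramming cells, Pou5f1 (12.59 to 13.23 on the log2 scale over the 5 arrays), Sall4, Cdh1 and Epcam were bright and Lin28a was dim, at 3.66, 5.54 and 4.55 in control. Of 7 fibroblast markers, 4 lay under the median probe set (5.89) on all 5 arrays, and the mean of the list was 5.28 to 5.43 in control and 5.28 to 5.36 in 3XHMT cells. The 6 macrophage and blood markers averaged 5.25 to 5.38 in control and 5.32 to 5.35 in 3XHMT cells. Of these 4 lay under the median probe set on all 5 arrays, the leukocyte gene Ptprc among them at 3.28 to 3.47. Cd68 and Csf1r lay above it, at 8.22, 7.08 and 7.33 against 7.54 and 7.65, and at 6.35, 6.65 and 6.84 against 6.73 and 6.20. The neuronal gene Stmn2 was bright in both groups, at 12.36 to 13.06. None of the 3 to 7 markers each of fibroblasts, blood, trophoblast, primitive endoderm, neurons and epithelium passed the test, with or without the block described next, whereas longer lists for some of these types, given further on, hold genes that did. Among the markers the groups were apart for the neuronal tubulin gene Tubb3, which differed by 0.91 ± 0.22 (adjusted p = 0.325, and 0.105 with the block). They were also apart for the mesenchymal factor gene Twist1, which differed by -0.73 ± 0.26 (0.708 and 0.0613), and for Lin28a, at 5.61 and 6.10 in 3XHMT cells (1.27 ± 0.57). Smaller differences without overlap were those of the fibroblast genes Col1a1 (0.18 ± 0.13) and Postn (-0.29 ± 0.12) and of the endoderm gene Gata4 (-0.29 ± 0.15). Groups without overlap were found for 16.4% of all genes. The part of such cells in the results was not tested.

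The arrays fall into 3 sets by the signal of an 18S ribosomal RNA control probe set, which cross the groups. Control 2 and 3XHMT 1 had high signal (12.82 and 12.67), control 3 and 3XHMT 2 low signal (10.17 and 10.12), and control 1 lay between them (11.22) in the set of a Cbx3 array. Measured over all genes, the departures of single arrays from their group mean had a correlation of 0.56 between control 2 and 3XHMT 1 and of 0.53 between control 3 and 3XHMT 2. With 2 arrays in the 3XHMT group their departures are exact opposites, so these values are not independent of each other. What the sets stand for is not stated in the labels. Each result is therefore given without a block and, where it alters the call, with the 18S set as a block, and the difference within each pair of like signal is given for the leading genes. In the fit with the block, the Cbx3 arrays also helped to estimate the differences between sets. The differences and calls with the block thus depend in part on the Cbx3 arrays, beyond the spread. The difference between the 3' and 5' probe sets of actin, a sign of RNA integrity, was 0.20, 0.20 and 0.60 in control and 0.18 and 0.17 in 3XHMT cells, so that control 3 stood apart.

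The transcripts targeted by siRNA were lower on average, and the differences without a block did not pass the test. Setdb1 read 9.35, 9.53 and 9.62 on the control arrays and 8.60 and 9.08 on the 3XHMT arrays, without overlap. Its difference of -0.66 ± 0.17 (SE) had an adjusted p of 0.339, and 0.0295 with the 18S set as a block, where it passed under 2 of 5 omissions. Other Setdb1 probe sets differed by -0.72 and -0.07. Ehmt2 read 10.60, 10.35 and 9.68 in control and 9.78 and 9.48 in 3XHMT cells, with 3XHMT 1 above control 3, and Ehmt1 read 10.49, 10.58 and 10.90 against 10.11 and 10.54, with 3XHMT 2 inside the control range. Their differences were -0.58 ± 0.27 and -0.33 ± 0.19 (adjusted p = 1.00 each; 0.196 and 0.131 with the block). Within both pairs of like 18S signal all 3 transcripts were lower in the 3XHMT array, by 0.93 and 0.54 log2 units for Setdb1. Of 21 measured genes of this machinery, the 3 targets among them, 0 changed. At an unadjusted p under 0.05, 2 were higher (Zfp809 and Atf7ip) and 1 lower (Setdb1), against 2.63% of all genes in each direction. With the block 1, Setdb1, was called. Zfp809, a KRAB zinc finger gene that directs silencing to retroviral DNA, read 8.49, 8.43 and 8.48 against 9.04 and 8.88 (1.41-fold, adjusted p = 0.307; 0.0613 with the block).

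Between the groups 42 of 18193 genes changed (limma adjusted p under 0.05), which is 0.231% of those tested. Of these 37 were higher in 3XHMT cells (0.203%) and 5 lower (0.0275%), whereas an unadjusted p under 0.05 was reached by 479 genes in each direction (2.63% each, 5.27% together). On all 42 the groups did not overlap, which held for 16.4% of all genes (9.28% higher and 7.10% lower). On all 42 both pairs of like 18S signal moved the same way, against 27.3% of genes higher and 29.5% lower in both pairs. Neither count is further evidence for the calls. The 42 were picked by the test on these same arrays, and groups without overlap fix the sign of both pairs. The rises spanned 0.80 to 5.28 on the log2 scale with a median of 1.88, and 16 of them reached 2. Control signal was low for most of the risen genes: 26 of 37 (70.3%) had a control mean under the median probe set, against 36.8% of all genes, and 9 were still under it in 3XHMT cells. None of the 5 fallen genes started there. Of the risen genes 23 (62.2%) were higher on 3XHMT 1 than on 3XHMT 2, against 54.8% of all genes.

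**Figure D1:**
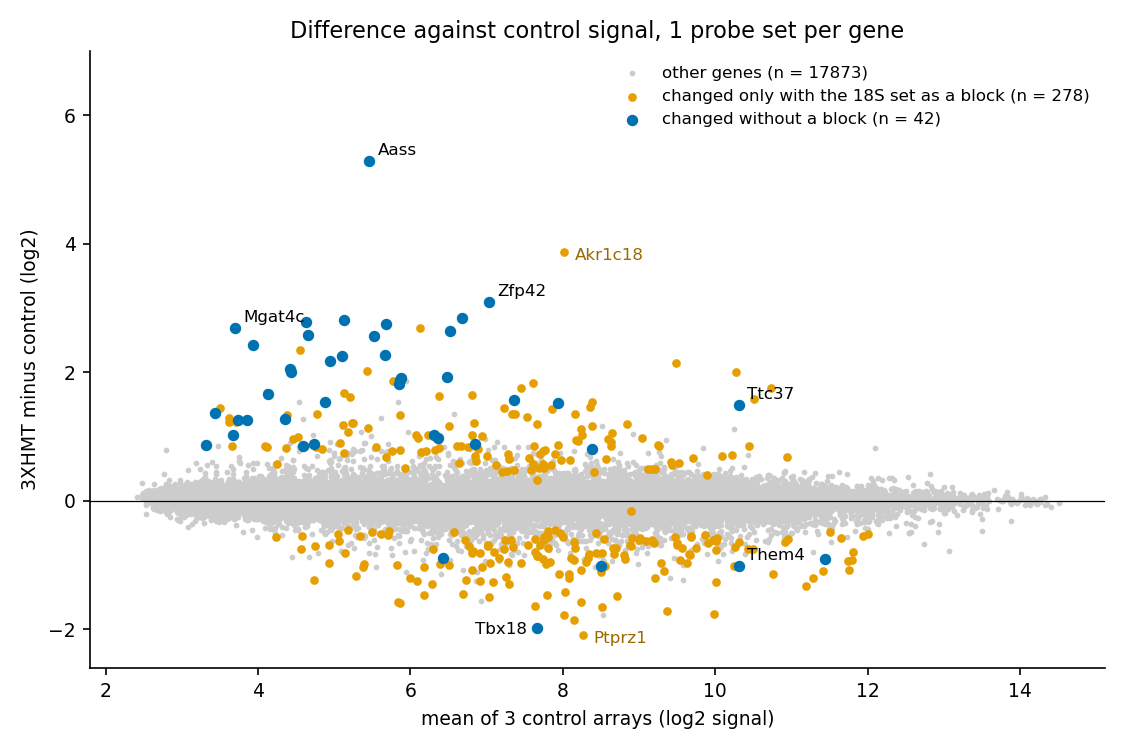
Difference between 3XHMT and control (log2, vertical axis) against the mean log2 signal of the 3 control arrays (horizontal axis), 1 point per gene. Blue points are the 42 genes changed without a block, orange points the 278 more that passed with the 18S set as a block, and grey points the rest; Aass stands alone at 5.28, and most blue points lie at low control signal.

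Every omission of an array lowered the number of changed genes. It came to 9, 8 and 20 when control 1, 2 or 3 was dropped, to 3 and 16 for 3XHMT 1 or 2, and to 15, 15 and 22 for the Cbx3 arrays. Of the 42 genes 2, Aass and Mgat4c, passed under all 8 omissions, 4 (Klk1b27, Pcdh17, St6galnac3 and Tbx18) under 7, 18 under 1 to 6 and 18 under none. All 42 kept their direction in each omission. With the 18S set as a block 320 genes passed (1.76%), 158 higher (0.868%) and 162 lower (0.890%), with all 42 among them; an unadjusted p under 0.05 was reached by 6.38% higher and 6.21% lower, 12.6% together. Under that block 301, 74 and 69 genes passed without control 1, 2 and 3 and 140 and 191 without 3XHMT 1 and 2, and 25 of the 42 passed under each of these 5 omissions.

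**Figure D2:**
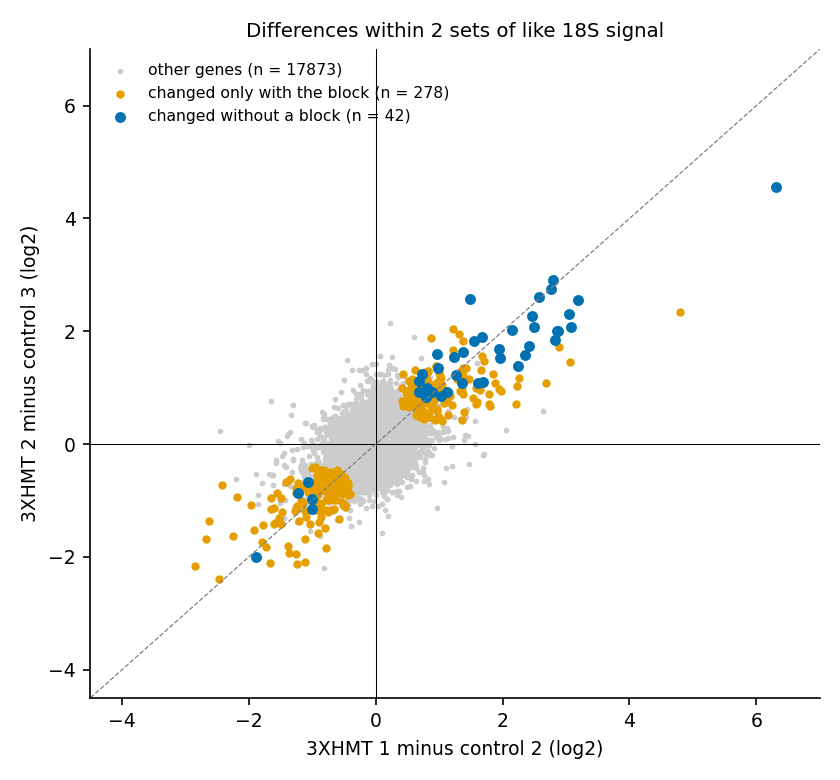
Difference within each pair of arrays of like 18S signal, 3XHMT 1 minus control 2 on the horizontal and 3XHMT 2 minus control 3 on the vertical axis (both log2), 1 point per gene, with the dashed line where both are equal. All 42 blue genes lie at the upper right or lower left of the origin, and Aass, at 6.31 and 4.56, lies farthest out.

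Aass gave the largest difference of all genes. It encodes the mitochondrial enzyme that starts the breakdown of lysine by the saccharopine route. Its signal was 5.77, 4.98 and 5.64 on the control arrays and 11.29 and 10.20 on the 3XHMT arrays. The lowest 3XHMT array thus stood far above every control array, which themselves lay around the median probe set. The rise of 5.28 ± 0.37 (SE, 95% interval 4.44 to 6.13) is 39.0-fold (adjusted p = 0.00308), and the adjusted p stayed at or under 0.0231 with any array left out. Aass was the sole member of its list to change: of 22 measured genes of lysine and tryptophan breakdown 1 rose, 0 fell, and the median difference was 0.01, as it was over all genes.

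The promoter of Aass, 250 bases before to 50 after the first listed start in RefSeq (GRCm38.p6), is shown because this gene moved most; capitals mark each CG dinucleotide, the site of DNA methylation, and there are 5 in 300 bases.
Aass (chr6:23132937-23133236, - strand): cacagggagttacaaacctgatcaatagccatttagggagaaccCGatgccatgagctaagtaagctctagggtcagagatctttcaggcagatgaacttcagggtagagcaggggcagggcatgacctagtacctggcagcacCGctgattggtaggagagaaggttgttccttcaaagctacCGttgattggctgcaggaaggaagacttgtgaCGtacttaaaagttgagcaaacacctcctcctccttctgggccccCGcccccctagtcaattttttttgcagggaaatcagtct
On chromosome 6, the genes beside Aass did not rise with it. Ptprz1, a receptor tyrosine phosphatase gene and its nearest measured neighbour on one side, read 7.56, 8.42 and 8.80 in control and 5.95 and 6.40 in 3XHMT cells. Its groups did not overlap, and the difference of -2.08 ± 0.36, the lowest of any gene, passed with the block alone (adjusted p = 0.104; 2.14e-04 with the block). Cadps2, a gene of vesicle release on the other side, read 5.12, 5.45 and 5.47 against 4.77 and 4.81 (-0.55 ± 0.14, adjusted p = 0.327; 0.0395 with the block, passing under 1 of 5 omissions). Fezf1, between Aass and Cadps2, differed by -0.12 ± 0.12.

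Of 4 marker genes of late reprogramming, Nanog, Zfp42 and Dppa4 rose and Esrrb did not pass the test. Nanog, a homeobox factor of naive pluripotency, read 4.87, 5.10 and 5.41 in control and 8.15 and 7.72 in 3XHMT cells. It rose 7.01-fold (adjusted p = 0.0434), with differences of 3.05 and 2.31 in the pairs of like 18S signal. Zfp42, which encodes the stem cell marker REX1, read 6.59, 7.53 and 6.97 against 10.73 and 9.52, an 8.54-fold rise (adjusted p = 0.0452). Dppa4, a chromatin protein gene of early embryos, was even over the control arrays at 5.55, 5.54 and 5.48 and read 8.61 and 7.55 in 3XHMT cells, 5.89-fold higher (adjusted p = 0.0135). In each of these genes both 3XHMT arrays stood well above all control arrays, and 3XHMT 1 above 3XHMT 2. The calls were less firm than the separation: Zfp42 passed under 0 of the 8 omissions of an array, Nanog under 2 (adjusted p up to 0.323 for both), and Dppa4 under 6, failing without control 1 or 2 (up to 0.0746). With the block all 3 passed under each of the 5 omissions.

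The promoters of Zfp42 and Nanog are shown because both hold, in the letters TTTGCAT (searched on both strands), the core of the octamer that POU factors such as OCT4 bind; capitals mark CG.
Zfp42 (chr8:43306960-43307259, - strand): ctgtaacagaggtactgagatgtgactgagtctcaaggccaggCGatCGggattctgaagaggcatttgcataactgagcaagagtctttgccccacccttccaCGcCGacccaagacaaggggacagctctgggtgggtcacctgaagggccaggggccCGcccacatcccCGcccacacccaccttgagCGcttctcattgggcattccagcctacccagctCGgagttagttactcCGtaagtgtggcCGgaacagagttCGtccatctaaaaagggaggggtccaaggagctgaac
Nanog (chr6:122707239-122707538, + strand): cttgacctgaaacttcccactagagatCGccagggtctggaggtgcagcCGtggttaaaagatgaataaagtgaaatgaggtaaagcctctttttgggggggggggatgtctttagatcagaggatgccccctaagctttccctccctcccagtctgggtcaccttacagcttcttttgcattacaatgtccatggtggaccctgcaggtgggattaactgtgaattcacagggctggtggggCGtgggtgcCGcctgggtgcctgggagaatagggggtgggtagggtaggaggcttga
Zfp42 has 11 CG and Nanog 4. The Nanog promoter also holds CATTGT, the core bound by SOX factors and likewise searched on both strands. The printed strand shows it as its reverse complement, acaatg, parted from tttgcat by the letter t. The 2 motifs can overlap by 3 letters in general but do not here. The octamer core occurred in 3 of the 29 risen genes with a promoter in the table (Zfp42, Nanog and Gm364; 10.3%) and in 3.76% of 14368 promoters, and CATTGT in 6 of 29 (20.7%) and 9.25%, or 13.5% of the promoters of genes with low control signal. Among genes that passed with the block, TTTGCAT occurred in 6.78% of 118 higher and 6.40% of 125 lower promoters, and CATTGT in 9.32% and 7.20%.

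Of 56 measured genes of the pluripotency list 3 rose and 0 fell, and with the block 8 rose (0.203% and 0.868% of all genes). Higher differences were found for 45 of the 56, against 9397 of all 18193 genes, with a median of 0.15 against 0.01 over all genes. An unadjusted p under 0.05 was reached by 10 higher and 1 lower, against 2.63% of all genes in each direction. The list was chosen with earlier results of these data known. The members added by the block were Dppa2, Gbx2, Tex19.1, Dppa5a and Nr0b1. Gbx2, a homeobox gene of naive pluripotency, read 5.85, 6.90 and 6.39 against 8.27 and 7.74, without overlap (3.09-fold, adjusted p = 0.217; 0.00264 with the block), and passed with the block under all 5 omissions. Tex19.1, a gene of germ cells and stem cells that restrains retrotransposons, read 5.70, 6.19 and 5.71 against 7.98 and 6.42, so that its difference rests mainly on 3XHMT 1 (adjusted p = 0.484; 0.0470 with the block). Dppa5a, an RNA-binding protein gene of stem cells, was already bright at 9.37, 11.19 and 10.98 and read 12.37 and 11.83 (0.636; 0.0455). The orphan receptor gene Nr0b1 overlapped between the groups, at 10.42, 9.58 and 9.14 against 10.67 and 10.08 (adjusted p = 1.00; 0.0183). Tex19.1 and Dppa5a passed with the block under 1 of 5 omissions and Nr0b1 under 2.

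The core factors and a further late gene showed no resolved difference. Pou5f1 read 13.23, 13.14 and 12.59 against 12.95 and 13.13 (0.05 ± 0.19, 95% interval -0.38 to 0.48), and Sox2 7.56, 9.34 and 8.27 against 9.24 and 7.85 (0.16 ± 0.56, interval -1.13 to 1.45). The 3XHMT arrays lay within the control range for both, and both differences changed sign under some settings. Esrrb, an orphan receptor gene that comes on with Nanog and Zfp42 in naive cells, read 6.10, 6.38 and 6.30 against 6.58 and 6.25 (0.16 ± 0.16, interval -0.21 to 0.52, adjusted p = 1.00). Its interval leaves out a change of the size seen for Nanog, Zfp42 or Dppa4.

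Dppa4 lies on chromosome 16 in a stretch where several genes were higher. By start position, Dppa2 lies 26.5 kb from Dppa4, Morc1 147.5 kb, 6430553K19Rik 161.7 kb, and Cd96 much farther off, at 2248 kb. Dppa2, its adjacent paralogue and binding partner, read 5.37, 6.32 and 6.71 in control and 9.20 and 8.42 in 3XHMT cells (6.42-fold, adjusted p = 0.0682; 0.00199 with the block, passing under all 5 omissions). Morc1, a gene of transposon silencing in germ cells on the far side of Dppa2, read 9.14, 11.01 and 10.67 against 12.22 and 12.34 (4.03-fold; 0.327 and 0.0246, passing under 1 omission with the block). On the other side, the gene model 6430553K19Rik rose from 3.38, 3.26 and 3.31 to 4.15 and 4.23 (1.83-fold, adjusted p = 0.0434, passing under 0 of the 8 omissions without the block), and Cd96, a lymphocyte receptor gene, read 5.24, 5.55 and 5.53 against 6.33 and 6.82 (2.20-fold; 0.0594 and 0.0117, passing under 2 omissions with the block). In all of these both 3XHMT arrays stood above every control array. The stretch was not uniform: Nectin3, between Cd96 and 6430553K19Rik, differed by -0.04 ± 0.28, Gm5485, between Dppa2 and Morc1, by 0.05 ± 0.15, and Trat1 and Retnlb beyond Morc1 by 0.11 ± 0.13 and 0.21 ± 0.16.

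**Figure D3:**
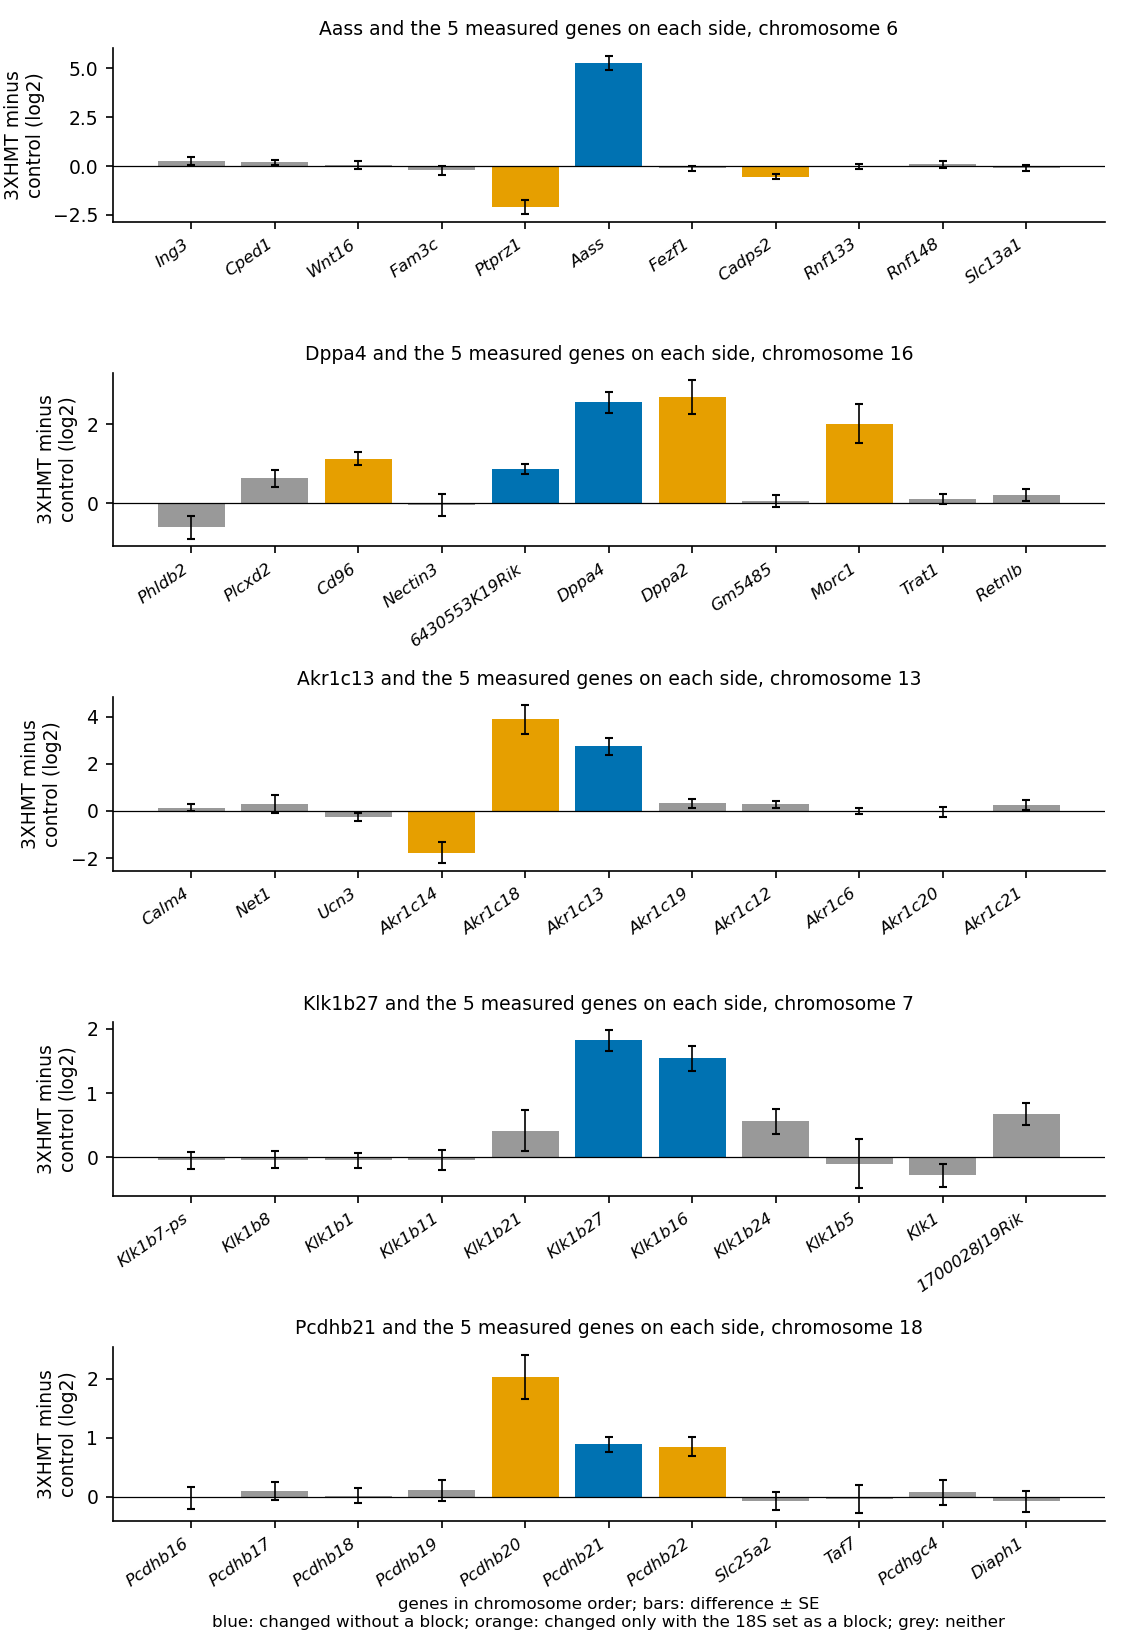
Difference between 3XHMT and control (log2, bars, with the SE from limma) for 5 genes with changed neighbours or relatives and the 5 measured genes on each side in chromosome order. Blue bars changed without a block, orange bars passed with the 18S set as a block alone, and grey bars passed in neither; the changes fall on some genes of each stretch and skip others.

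Metabolic enzymes made up 7 of the 37 risen genes, Aass among them. This count and those of other roles below only order the risen genes. The share of each role over all genes was not measured, so the counts do not show that a role is frequent among them. Akr1c13, an aldo-keto reductase that acts on steroids and other carbonyls, read 5.05, 6.05 and 5.93 in control and 8.92 and 7.93 in 3XHMT cells, 6.72-fold higher (adjusted p = 0.0366). Beside it in the cluster on chromosome 13, Akr1c18, which inactivates progesterone, read 7.40, 7.48 and 9.17 against 12.28 and 11.51. Its 14.7-fold difference is the next largest after Aass and did not overlap, but control 3 stood above the other control arrays and the call came with the block (adjusted p = 0.0627; 0.00778). Akr1c14, another steroid reductase adjacent to Akr1c18, moved the other way, from 9.99, 9.41 and 10.54 to 7.62 and 8.80 (-1.77 ± 0.45; 0.352 and 5.19e-04). The next 5 genes of the cluster, Akr1c19, Akr1c12, Akr1c6, Akr1c20 and Akr1c21, differed by -0.05 to 0.33 with 0 calls. Of 15 measured aldo-keto reductases 1 rose, and with the block 2 rose and 1 fell, with a median of 0.09. Akr1c13 passed under 0 of the 8 omissions without the block (adjusted p up to 0.259) and under all 5 with it. Transcripts of this family are alike, and whether probes of one gene also bind another was not tested.

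The other risen enzymes act on lipids, drugs and sugars. Slc27a2, which takes up and activates very long chain fatty acids, read 5.98, 6.90 and 6.65 against 9.36 and 8.93 (6.20-fold, adjusted p = 0.0135, lost without 3XHMT 1 or 2, at up to 0.124). Of 33 genes of fatty acid activation and oxidation it alone rose and Them4 fell, and the median difference was 0.05. Ptgs2, the inducible enzyme of prostaglandin synthesis, rose from 7.24, 7.29 and 7.56 to 8.67 and 9.19 (2.97-fold, adjusted p = 0.0283). Cyp2c55, a cytochrome P450, stayed under the median probe set in both groups, at 4.36, 4.48 and 4.22 against 5.45 and 5.81 (2.42-fold, adjusted p = 0.0314). Sult4a1, a sulfotransferase of the brain, and Gk5, a glycerol kinase, rose 1.96-fold and 1.84-fold (adjusted p = 0.0452 each). For all of these genes the groups were apart. Cyp2c55, Sult4a1 and Gk5 passed under 0 of the 8 omissions and Ptgs2 under 2.

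**Figure D4:**
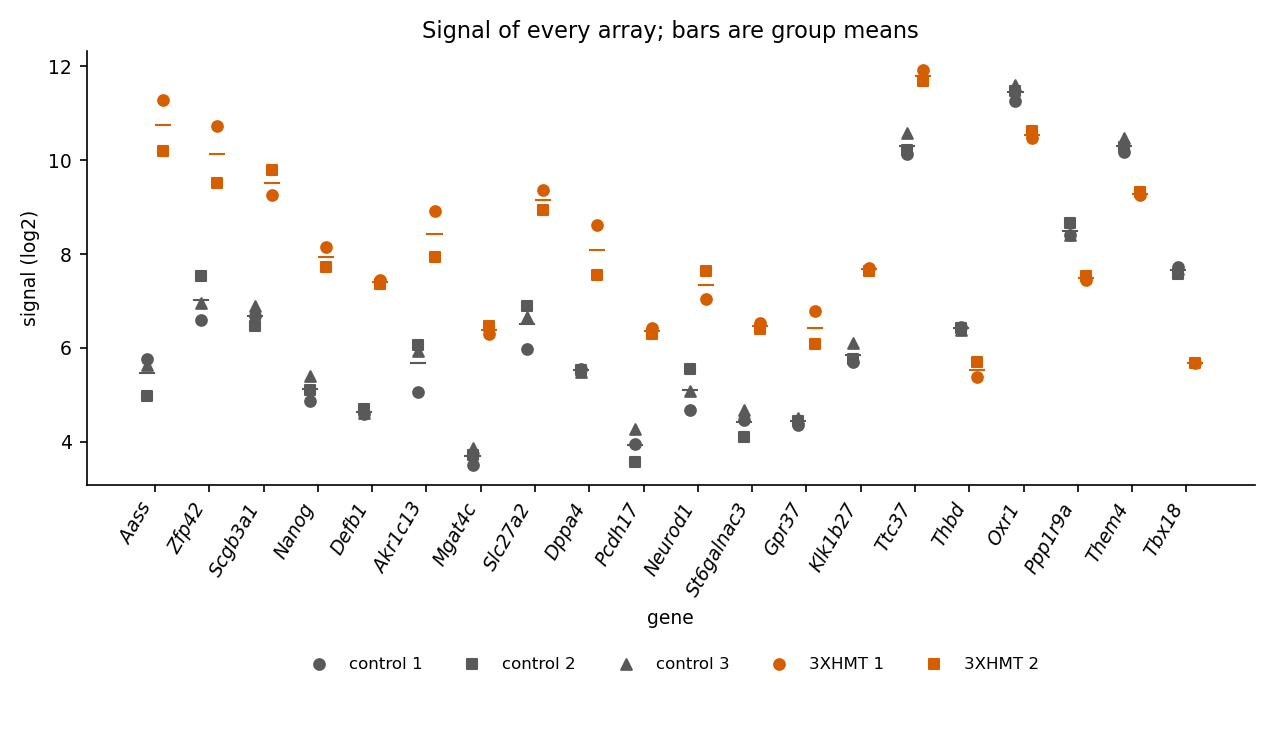
Log2 signal (vertical axis) on each of the 3 control arrays (grey) and 2 3XHMT arrays (orange) for 20 changed genes, with group means as bars and marker shape for the replicate. For each gene the orange points lie on one side of the grey ones, and the step is longest for Aass.

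Genes of secreted proteins formed another 7 of the 37. Scgb3a1, a secretoglobin of airway epithelium, read 6.69, 6.46 and 6.89 in control and 9.25 and 9.79 in 3XHMT cells (7.16-fold, adjusted p = 0.0151), and here 3XHMT 2 was the higher array. Defb1, an antimicrobial beta-defensin, read 4.60, 4.69 and 4.61 against 7.45 and 7.37, a step many times the spread of either group (6.85-fold, adjusted p = 0.0135). Its other probe set, of a kind that can match several transcripts, differed by 1.64. These were the 2 risers among 22 measured defensins and secretoglobins, whose median difference was -0.02. Both calls were lost without control 1, control 2 or either 3XHMT array, at adjusted p up to 0.0978 for Scgb3a1 and 0.124 for Defb1. Sftpd, the lung collectin surfactant protein D, rose 3.67-fold (adjusted p = 0.0283), Spink10, of a family of serine protease inhibitors, 2.40-fold (0.0452), and Lama3, a laminin chain of epithelial basement membranes, 2.86-fold (0.0434). Spink10 and Lama3 passed under 0 of the 8 omissions and Sftpd under 1. The second Lama3 probe set read 4.48 and 4.54 in the means of the groups, a difference of 0.05.

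Glandular kallikreins are secreted serine proteases from a dense cluster on chromosome 7. Klk1b27 read 5.70, 5.75 and 6.11 in control and 7.71 and 7.64 in 3XHMT cells (3.53-fold, adjusted p = 0.00716, lost without 3XHMT 1 alone, at 0.0903). Klk1b16, beside it, read 4.57, 5.0 and 5.06 against 6.24 and 6.60 (2.91-fold, adjusted p = 0.0336, passing under 1 omission). Both separated the groups fully, and both started near or under the median probe set. Next in line, Klk1b24 read 7.85, 7.82 and 7.61 against 8.18 and 8.46 (1.47-fold, adjusted p = 0.689), Klk1b21 on the other side differed by 0.41 ± 0.32, and Klk1b11, Klk1b1 and Klk1b8 by -0.05 to -0.03. Klk1, the bright tissue kallikrein gene at 13.17, 13.79 and 13.55, read 13.16 and 13.30 in 3XHMT cells. Of 17 measured kallikreins 2 rose and 0 fell, with a median of 0.15. The promoters of the pair are shown because these neighbours rose together; aligned end to end they share 234 of 323 columns (72.4%), with 3 and 2 CG, in capitals, and neither holds TTTGCAT or CATTGT.
Klk1b27 (chr7:44052040-44052339, + strand): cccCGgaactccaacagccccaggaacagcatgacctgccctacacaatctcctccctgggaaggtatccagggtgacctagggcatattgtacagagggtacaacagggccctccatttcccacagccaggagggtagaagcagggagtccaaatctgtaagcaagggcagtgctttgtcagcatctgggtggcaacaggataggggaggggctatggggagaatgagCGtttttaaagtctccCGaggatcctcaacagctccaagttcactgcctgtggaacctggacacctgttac
Klk1b16 (chr7:44137040-44137339, + strand): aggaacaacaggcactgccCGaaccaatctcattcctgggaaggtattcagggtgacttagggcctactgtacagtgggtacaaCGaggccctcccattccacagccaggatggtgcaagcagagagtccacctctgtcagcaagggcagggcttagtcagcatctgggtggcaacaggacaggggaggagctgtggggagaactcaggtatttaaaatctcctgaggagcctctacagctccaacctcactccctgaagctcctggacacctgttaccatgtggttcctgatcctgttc

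Mgat4c, a glycosyltransferase related to those that branch N-glycans, rose with little spread between arrays. It read 3.50, 3.72 and 3.88 in control, among the dim probe sets, and 6.30 and 6.48 in 3XHMT cells. The 6.44-fold rise had the lowest adjusted p of all genes (6.71e-04), which stayed at or under 0.0154 with any array left out, and the pairs of like 18S signal gave 2.57 and 2.60. The other 17 measured genes of the N-glycan list did not change, and the median difference of the list was -0.11. St6galnac3, a sialyltransferase of O-glycans and gangliosides, read 4.46, 4.11 and 4.67 against 6.53 and 6.41 (4.15-fold, adjusted p = 0.00716, lost without 3XHMT 1 alone). Its groups did not overlap either, yet the other 2 probe sets of the gene differed by 0.04 and 0.05.

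Surface and membrane proteins accounted for 6 risen genes. Pcdh17, an adhesion molecule of neurons, read 3.95, 3.57 and 4.28 against 6.43 and 6.29 (5.37-fold, adjusted p = 0.00716, lost without 3XHMT 1 alone, at 0.0903), and its second probe set rose by 2.39. Gpr37, a receptor found in glia and neurons, read 4.35, 4.44 and 4.52 against 6.78 and 6.09 (4.0-fold, adjusted p = 0.0222, passing under 3 omissions). Both were dim in control, and Gpr37 was also even over the control arrays. Naalad2, a membrane peptidase, rose 3.80-fold (adjusted p = 0.0434), with 0.38 at its other probe set. Slc9b1, a sodium/proton exchanger, rose 3.74-fold (0.0235), with 1.72 at one other probe set and -0.04 to 0.73 at 3 more. Ms4a10, a tetraspanning membrane protein, rose 1.80-fold (0.0452).

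The clustered protocadherin Pcdhb21 rose 1.85-fold, from 4.77, 4.70 and 4.74 to 5.50 and 5.74 (adjusted p = 0.0434, passing under 0 of the 8 omissions), with 0.30 at its other probe set. Its neighbours on chromosome 18 passed with the block: Pcdhb20 read 5.15, 5.53 and 5.62 against 8.21 and 6.70 (4.07-fold, adjusted p = 0.136; 0.0217), and Pcdhb22 read 4.29, 3.98 and 4.0 against 5.11 and 4.76 (1.80-fold, 0.159; 0.0117), passing with the block under 3 and 2 of 5 omissions. All 3 separated the groups. The next members, Pcdhb16 to Pcdhb19, differed by -0.03 to 0.11. Of 23 measured clustered protocadherins 1 rose, 3 with the block, and the median was 0.04.

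Among genes of signalling and regulation, Neurod1, a basic helix-loop-helix factor that drives neuronal and endocrine differentiation, read 4.67, 5.56 and 5.08 against 7.04 and 7.65. It rose 4.74-fold (adjusted p = 0.0313, passing under 1 omission) and its other probe set rose by 2.64. Of 42 measured neural genes it alone changed without the block. With the block the adhesion gene Ncam1 (8.32, 7.92 and 8.22 against 7.04 and 7.41; adjusted p = 0.377, 0.0290 with the block) and the microtubule gene Map2 (7.37, 8.45 and 8.88 against 6.84 and 7.47; 0.776 and 0.0209) were lower, Map2 with overlap, and each passed with the block under 1 of 5 omissions. Map2 differed by -0.06 at its second probe set, and Ncam1 by -1.21 there but by -0.08 at the probe set that stood for it in the setting that drops multi-transcript probe sets. Fyn, a Src family kinase, was even in both groups, at 8.41, 8.40 and 8.35 against 9.19 and 9.18 (1.74-fold, adjusted p = 0.0452), and its other probe set differed by 0.96. Pde1b, a phosphodiesterase of cyclic nucleotides, rose from 6.32, 6.30 and 6.30 to 7.43 and 7.22 (2.02-fold, 0.0313). Fyn and Pde1b passed under 0 of the 8 omissions.

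Ttc37, a scaffold of the SKI complex that feeds RNA to the exosome, was the brightest of the risen genes, at 10.13, 10.22 and 10.58 against 11.91 and 11.69. It rose 2.81-fold (adjusted p = 0.0424, passing under 2 omissions), whereas its other probe set read 4.73 and 4.78 in the group means. Of the remaining risers, Smlr1 and ccdc198 rose 2.03-fold and 2.40-fold (adjusted p = 0.0434 and 0.00829), and 6 carry the names of gene models or clones: Gm32960 (5.97-fold), AI662270 (4.81-fold), C130073F10Rik (4.50-fold), 2310057N15Rik (3.15-fold), Gm364 (2.58-fold) and 6430553K19Rik. The other AI662270 probe set rose by 2.73.

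Of the 5 fallen genes, Tbx18 fell most. This T-box factor marks mesenchyme of the heart, somites and urogenital tract. It read 7.73, 7.57 and 7.69 in control and 5.68 and 5.69 in 3XHMT cells, 3.95-fold lower (adjusted p = 0.00716, lost without 3XHMT 1 alone, at 0.0903), with -1.33 at its dimmer probe set. The arrays of each group lay close together. Of 15 measured T-box genes 1 fell, and with the block Tbx15, a factor of limb and skeletal mesenchyme, was lower as well, at 7.62, 7.89 and 7.76 against 7.20 and 7.18 (-0.57 ± 0.12, adjusted p = 0.189; 0.0359, passing under 1 of 5 omissions with the block). The median of the list was -0.05. Among 47 fibroblast and mesenchymal genes Tbx18 alone changed, and the median was -0.02; with the block 2 were higher and 2 lower. The promoter of Tbx18 is shown because this gene fell most. It has 15 CG, in capitals, more than the promoters printed above but fewer than the median of 17 over all promoters. Several risen genes whose promoters are not printed have more, up to 35 in Gk5.
Tbx18 (chr9:87731211-87731510, - strand): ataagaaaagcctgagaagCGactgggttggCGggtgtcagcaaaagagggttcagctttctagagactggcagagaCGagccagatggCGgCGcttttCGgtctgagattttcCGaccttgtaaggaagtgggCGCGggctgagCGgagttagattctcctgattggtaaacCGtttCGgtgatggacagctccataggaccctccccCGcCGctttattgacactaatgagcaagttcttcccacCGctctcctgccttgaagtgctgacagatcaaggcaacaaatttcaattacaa

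The other 4 falls were between 1.85-fold and 2.03-fold and started from brighter signal than most rises. Them4, a thioesterase that also binds the kinase AKT, read 10.18, 10.28 and 10.47 against 9.27 and 9.31 (adjusted p = 0.0283). Ppp1r9a, the actin-binding neurabin, read 8.41, 8.67 and 8.40 against 7.44 and 7.53 (0.0424). Oxr1, a gene of oxidation resistance, read 11.27, 11.47 and 11.59 against 10.47 and 10.62 (0.0469), and Thbd, the anticoagulant receptor thrombomodulin, 6.45, 6.43 and 6.38 against 5.37 and 5.70 (0.0452). In each the groups were apart, and each passed under 0 of the 8 omissions, with adjusted p up to 0.378. Probe sets disagreed in part: the other Them4 probe set differed by -0.03, those of Oxr1 by -0.74 and 0.02, and those of Ppp1r9a by -0.82, -0.67, -0.36 and 0.01.

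The block on the 18S set added 278 genes, 121 higher and 157 lower. Their groups did not overlap in 94 and 131 cases, and their median differences were 0.85 and -0.81, smaller than those of the genes called without it. Together the 2 fits called all 23 genes that differed by 2 or more on the log2 scale. The added rises included Zfp982, a KRAB zinc finger gene, at 4.40, 4.66 and 4.58 against 7.73 and 6.04 (5.05-fold, adjusted p = 0.0116 with the block; 0.38 on the log2 scale at its second probe set), and Car2, a carbonic anhydrase, at 8.38, 9.47 and 10.60 against 11.18 and 12.08 (4.42-fold, 0.00298). Car2 varied widely over the control arrays, and its pairs of like 18S signal gave 1.70 and 1.48. Immune receptor genes were among them: Btla, of lymphocytes, at 5.29, 6.45 and 5.57 against 7.67 and 7.61 (3.65-fold, 0.00778), and Clec2i, a C-type lectin, at 7.21, 7.17 and 8.46 against 9.40 and 9.48 (3.55-fold, 0.0122). The granzyme inhibitor gene Serpinb9 and its relative Serpinb9b were 3.12-fold and 3.36-fold higher (0.0104 and 0.0320). The hormone precursor gene Trh (3.36-fold, 0.00300), Cthrc1, a secreted protein of collagen turnover (3.18-fold, 0.00778), and the helix-loop-helix repressor gene Msc (2.89-fold, 0.0122) were also higher. All of these separated the groups, and without the block their adjusted p was 0.0787 to 0.484. With the block Car2 and Trh passed under all 5 omissions, Zfp982, Btla, Clec2i and Serpinb9 under 4, and Serpinb9b, Cthrc1 and Msc under 3.

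The added falls held receptors, growth factors and matrix genes. Met, the receptor of hepatocyte growth factor, read 7.72, 7.13 and 8.06 against 5.35 and 6.63 (3.12-fold lower, adjusted p = 0.400; 0.00264 with the block), with -0.08 at its second probe set. The neuronal growth factor gene Ndnf read 7.88, 9.27 and 8.98 against 7.61 and 6.87 (2.78-fold lower, 0.00245 with the block), with -0.26 at its second probe set, and Col4a2, a basement membrane collagen, read 7.49, 8.17 and 8.18 against 6.58 and 7.04 (2.20-fold lower, 0.0243). Both Met and Ndnf kept the call under all 5 omissions with the block, and Col4a2 under 1. The detoxifying enzyme genes Mgst2 and Cbr2 were 2.99-fold and 3.27-fold lower (0.0116 and 0.0418), and the tight junction gene Cldn9 2.82-fold (0.0185), with -0.28 at its second probe set. Fgf13, an intracellular member of its family, was 2.44-fold lower (adjusted p = 0.0524; 0.00650), but differed by 0.39 at its second probe set. Oas1f and Oas1h, of the 2'-5' oligoadenylate synthetase family, were 3.45-fold and 2.73-fold lower (0.00511 and 0.0122), with control 1 well under the other control arrays in both and, for Oas1f, under 3XHMT 2. Agtr2 and Gdnf, genes of the angiotensin type 2 receptor and a neurotrophic factor, passed with the block (0.00659 and 0.0383) although their control arrays were far apart, at 7.19, 8.97 and 7.23 and at 5.85, 7.04 and 4.62, and Agtr2 overlapped between the groups. Of these genes Cbr2 passed with the block under 1 of 5 omissions, Mgst2 and Gdnf under 2, Cldn9, Agtr2 and Oas1h under 3, Oas1f under 4 and Fgf13 under all.

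Lists of germline, early embryonic, interferon and Hox genes held few calls. The germline list does not hold Morc1 or Tex19.1, described above as genes of germ cells, which were higher with the block. Tex19.1 was counted in the pluripotency list. Of 39 measured germline genes 0 changed (3 higher and 0 lower at an unadjusted p under 0.05; median -0.03), and with the block Ddx25, an RNA helicase of spermatids, passed at 6.50, 6.41 and 6.62 against 7.36 and 8.0 (2.25-fold, adjusted p = 0.0653; 0.0114). Of 15 genes of the 2-cell stage 0 changed (2 higher and 0 lower), with a median of 0.10, and Usp17la, a deubiquitinase, passed with the block (4.15, 4.71 and 4.50 against 5.34 and 5.49; 0.105 and 0.0258). Of 40 interferon and double-stranded RNA genes 0 changed (1 higher and 3 lower), with a median of 0.07 and 1 higher with the block. Oas1f and Oas1h, which were lower with the block, are not in this list. Of 33 Hox genes 0 changed (1 higher and 5 lower), with a median of -0.09, and Hoxd13 passed with the block at 9.22, 8.61 and 8.57 against 7.96 and 7.94 (1.80-fold lower, 0.277 and 0.0395), with -0.21 at its second probe set. For reference, 2.63% of all genes were higher and 2.63% lower at that unadjusted threshold.

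The remaining lists held few calls at an adjusted p under 0.05. Of 41 cell cycle genes 0 changed and 0 had an unadjusted p under 0.05, with differences of -0.33 to 0.31. The lists of Polycomb genes (29 measured), DNA methylation and demethylation (21), H3K9 demethylases (11), mesendoderm (22), epithelium (37), trophoblast (29), and macrophage and blood (25) held 0 changed genes, and medians of -0.09 to 0.03. In the trophoblast list 1 gene was lower with the block, and in the other lists of that sentence 0. At an unadjusted p under 0.05 with the block, 0 epithelial genes were higher and 7 of 37 lower, 1 trophoblast gene was higher and 6 of 29 lower, and 1 imprinted gene was higher and 7 of 47 lower, against 6.38% and 6.21% of all genes. Without the block the lower genes at that threshold were 2 epithelial, 0 trophoblast and 3 imprinted, and 4 of 28 in the primitive endoderm list. Of 28 primitive endoderm genes Thbd fell, joined by Col4a2 with the block, and of 47 imprinted genes Ppp1r9a fell, with 1 higher and 1 more lower with the block. Stress and p53 genes showed 0 changes without the block; with it the haem oxygenase gene Hmox1 (7.21, 9.28 and 8.0 against 10.01 and 9.02; adjusted p = 0.0367) and the apoptosis gene Pmaip1 (9.09, 9.65 and 9.04 against 10.45 and 9.77; 0.0114) were higher and the p53 target Ei24 lower (11.68, 11.80 and 11.46 against 11.17 and 10.95; 0.0430). The control range of Hmox1 reached above 3XHMT 2. The calls with the block of Usp17la, Hoxd13 and Hmox1 passed under 1 of 5 omissions, those of Ddx25 and Pmaip1 under 2 and that of Ei24 under 0.

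The promoters of risen genes were poor in CG dinucleotides. Of the 37 risen genes 29 had a promoter in the RefSeq table, with a median of 5 CG in 300 bases against 17 over 14368 genes. At most 5 CG were found in 16 of 29 (55.2%) and in 22.0% of all promoters. Genes with low control signal are themselves CG-poor: 45.6% of 5055 such promoters held at most 5, against 14 of 20 (70.0%) of the risen genes with low control signal. Mgat4c, Naalad2, C130073F10Rik, ccdc198 and 2310057N15Rik have 1 CG each, and Cyp2c55 and Ms4a10 have 0. At the other end stand Gk5 with 35, Fyn with 31, Pde1b with 28, Neurod1 and Pcdh17 with 26 each and Slc27a2 with 25. Of the genes that passed with the block, 35.6% of 118 higher and 20.8% of 125 lower promoters held at most 5 CG. The 3 fallen genes with a promoter, Tbx18, Them4 and Ppp1r9a, have 15, 25 and 48. No DNA methylation or histone mark was measured on these arrays.

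**Figure D5:**
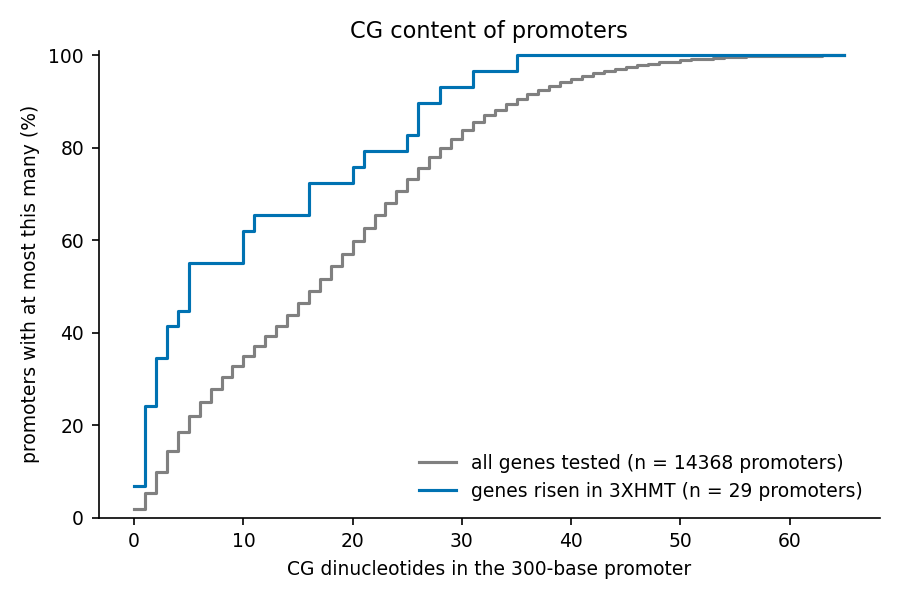
Share of promoters (vertical axis, %) with at most the number of CG dinucleotides given on the horizontal axis, for the 29 risen genes with a promoter in the table (blue) and all 14368 promoters of tested genes (grey). The blue line lies above the grey one throughout its rise, at 55.2% against 22.0% for 5 CG.

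Most genes next to changed ones did not pass the test, though calls were more frequent among them than among all genes. The 3 nearest measured genes on each side of the 42 gave 239 genes that had not changed themselves, with a median difference of -0.02. Nearness is by gene order, and distances differed widely: Pcdhb22 lies 4.7 kb from Pcdhb21, Fgf13 1661 kb from Gm364 and Cd96 2248 kb from Dppa4. At an unadjusted p under 0.05, 15 of them (6.28%) were higher and 12 (5.02%) lower, against 2.63% of all genes in each direction. With the block 7 (2.93%) passed as higher and 6 (2.51%) as lower, against 0.868% and 0.890% of all genes. Among those higher with the block were Dppa2, Morc1, Cd96, Akr1c18, Pcdhb20 and Pcdhb22, and among those lower Ptprz1, Cadps2, Akr1c14 and Fgf13. Several of them, Dppa2, Akr1c18, Akr1c14, Pcdhb20 and Pcdhb22, are relatives of the changed gene beside them. Whether probes of one such gene also bind another was not tested.

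Repeated probe sets gave a check within the arrays. Of the 42 genes 25 had 1 probe set and 17 had more, with 25 further probe sets, of which 22 had the sign of the chosen one and 14 an unadjusted p under 0.05. In 11 of the 17 genes another probe set reached 50% of the difference, Pcdh17, Neurod1, Fyn, AI662270 and Slc9b1 among them. In 6 no other did: Lama3, Naalad2, Pcdhb21, St6galnac3, Them4 and Ttc37.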

How the data were processed

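Per the submitters' processing notes, the authors made the deposited log2 values with RMA, a method of background correction, quantile normalization and summary over probes. The version used is not given in the sources used here. The table holds 45101 probe sets on 8 arrays. The platform annotation gave 1 symbol to 34945 probe sets and several to 932. Symbols, promoters and neighbours came from RefSeq tables (GRCm38.p6).

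A model with 1 mean per group took in all 8 arrays (limma 3.58.1, R 4.3.3; two-sided moderated test, 5 residual degrees of freedom), with Benjamini-Hochberg adjustment over 18193 genes, and a gene counted as changed at an adjusted p under 0.05. Folds are 2 to the power of the log2 difference. The 18S set as a block leaves 3 residual degrees of freedom, and the differences in that fit draw in part on the Cbx3 arrays. The script was tested on simulated data. Alternatives were the blocks, the choice of probe set, a filter on dim probe sets, cyclic loess, a trended and robust spread, and leaving out each array. The number of arrays limits the precision.

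Named were the targets, every changed gene, list members with the lowest p or passing with the block, the largest differences passing with the block alone, core factors, and neighbours with a low p. Not all are given in the text, and other members and neighbours are named to spell out a count. The members and the 28 gene lists were chosen with earlier results of these data known.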

Additional observations from a re-analysis of the deposited data

How the results depend on the processing

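The count of 42 changed genes was 320 with the 18S set as a block (158 higher and 162 lower, against 37 and 5 without it), 97 with the replicate number as a block (60 higher and 37 lower), 10 with the 5 compared arrays alone, 24 when genes were taken at their second probe set (100% higher) and 9 without dim probe sets, where 25 of the 42 were still tested. It was 36 with probe sets averaged, 41 without probe sets that can match several transcripts, 34 after cyclic loess and 43 with a trended and robust spread. Leaving out 1 array gave 3 to 22 genes, and with the 18S block, an alternative added after seeing the data, 301, 74 and 69 without control 1, 2 and 3 and 140 and 191 without 3XHMT 1 and 2. Replicate numbers do not pair the samples: same-numbered control and 3XHMT arrays had deviations that correlated by 0.11 and -0.56 (the 2 3XHMT arrays deviate in exact opposition), and 40 of the 42 passed with the replicate block. Setdb1 passed with the 18S block (-0.73), also without control 1 (-0.73) or 3XHMT 2 (-0.92). Signs turned for Oxr1 without multi-transcript probe sets (0.019) and for Fgf13 at its second probe set (0.39), where another probe set stood for the gene. They also turned for Pou5f1 with the replicate block (-0.044) and Sox2 with the 18S block (-0.078), and the cause was not tested. With 1 array left out Pou5f1 ranged from -0.15 to 0.17, Sox2 from -0.54 to 0.86 and Esrrb from -0.010 to 0.32. With the 18S block as well, Pou5f1 was at -0.17 without control 3 and -0.12 without 3XHMT 2, Sox2 at -0.25 without control 1 and -0.26 without 3XHMT 1, and Esrrb at -0.12 without 3XHMT 1. Signal close to background limits what can be said of the dim genes.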

Other observations

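Some of the largest differences lay at probe sets that the annotation used here does not list, and that therefore stand for no named gene. Among 9160 such probe sets 5 were higher in 3XHMT cells and 0 lower (limma adjusted p under 0.05 over 45037 probe sets), and 19 and 14 with the 18S set as a block. Probe set 1437867_at read 3.85, 3.61 and 4.61 on the control arrays and 9.69 and 9.25 on the 3XHMT arrays, a difference of 5.44 ± 0.44 (SE, adjusted p = 0.0122), larger than that of Aass. Probe sets 1447188_at, 1442812_at, 1438223_at and 1447135_at differed by 2.77, 2.65, 2.65 and 2.15 (adjusted p of 0.0122 to 0.0211). On all 5 the groups did not overlap, and the control arrays lay between 3.61 and 6.23.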
